A study of Mus musculus with 6 samples.

Results

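Imprinted growth regulators are genes of which mainly the copy from 1 parent is transcribed and whose products act on fetal and tissue growth. The 10 genes described here were chosen by name, namely Dlk1, Meg3, Rian, Peg3, Mest, Plagl1, Grb10, Ndn, Peg10 and Zdbf2, out of 25308 genes with a count in at least 1 library, and 8 of the 10 encode proteins. Estimated transcript counts were summed to each gene symbol and compared between myoblasts, myotubes and reserve cells. Of the 10 genes, 6 had enough counts to be tested and 4 did not.

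All 6 mRNA libraries came from C2C12, an established line of mouse myoblasts, with 2 libraries in each of 3 groups that the submitters call biological replicates. Myoblasts were taken at Day 0, close to confluency, and myotubes and reserve cells at Day 7 in medium with 2% horse serum, which withdraws growth factors so that cells leave the cell cycle and fuse. Reserve cells are the cells of the same dishes that stay single, and the groups were parted by mild trypsinization, so that the 2 Day 7 groups share their culture. The methods of the study give a shorter time in low serum than the labels, and the labels were followed. The labels name no transgene or drug, 1 cell line stands for all groups, and no library held a time between Day 0 and Day 7.

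Genomic imprinting is set up in the germ line, where DNA methylation is laid on control regions of only the maternal or only the paternal genome, and it is kept through cell division by DNMT1 with UHRF1 and by zinc finger proteins such as ZFP57 that recruit TRIM28. Many paternally expressed genes favour growth and many maternally expressed ones restrain it, and several of them are high in embryonic and regenerating muscle and fall as muscle matures. Counts of a gene do not tell the parental copies apart, so all values below are the sum of both.

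Sequences just upstream of 4 of these genes are shown because they mark the starts whose output is described below. Of the 10 genes, 9 had a window in the RefSeq promoter table (GRCm38.p6), which had none for Peg10. Only stretches that hold no exon are given, up to 250 bases before the start, 5′ to 3′ on the strand of the gene. Capitals mark TGCCGC, a core of the site that ZFP57 binds, searched on both strands, so that GCGGCA is the same motif on the other strand. For Dlk1 the stretch is chr12:109452573-109452822 (plus strand), for Meg3 it is chr12:109540746-109540995 (plus strand), for Mest it ends at the start used in these cells, chr6:30737800-30738049 (plus strand), and for Peg3 it is the whole gap to Usp29, chr7:6730432-6730577 (minus strand).
Dlk1: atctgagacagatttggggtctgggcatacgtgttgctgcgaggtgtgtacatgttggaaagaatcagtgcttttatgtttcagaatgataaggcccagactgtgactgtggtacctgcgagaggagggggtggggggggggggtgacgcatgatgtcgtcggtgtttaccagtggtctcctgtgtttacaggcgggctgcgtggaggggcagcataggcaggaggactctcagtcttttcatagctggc
Meg3: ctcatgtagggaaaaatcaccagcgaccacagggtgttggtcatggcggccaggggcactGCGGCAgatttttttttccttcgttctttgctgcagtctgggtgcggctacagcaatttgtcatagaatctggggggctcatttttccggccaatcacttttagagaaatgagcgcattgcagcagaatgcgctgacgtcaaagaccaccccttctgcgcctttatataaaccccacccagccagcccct
Mest: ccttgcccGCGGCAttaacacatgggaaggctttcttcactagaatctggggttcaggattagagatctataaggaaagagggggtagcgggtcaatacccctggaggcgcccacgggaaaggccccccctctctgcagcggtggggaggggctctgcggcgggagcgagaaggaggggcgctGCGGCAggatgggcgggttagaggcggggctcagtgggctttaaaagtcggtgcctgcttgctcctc
Peg3: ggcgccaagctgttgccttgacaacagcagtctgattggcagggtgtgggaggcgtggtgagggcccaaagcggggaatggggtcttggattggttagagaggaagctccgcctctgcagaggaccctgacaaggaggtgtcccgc
The Mest stretch held the motif 2 times, with 14 CpG dinucleotides and 62.4% G and C. The Meg3 stretch held it 1 time, with 10 CpG, and the Dlk1 stretch held none, with 8 CpG. The gap of 146 bases beside Peg3 held none, with 5 CpG. The full Peg3 window of 250 bases, which runs into exons, held none either, with 8 CpG. Among all 32851 windows of 250 bases in the table, 8.68% held TGCCGC, and the median window had 6 CpG. CAGCTG, an E-box of the kind that myogenic factors bind, was found in 13% of windows and in none of these 4 stretches. Windows that are not shown differed, with TGCCGC 3 times in a Zdbf2 window, CAGCTG 1 time in a further Mest window and neither in the Grb10 windows. A match only describes the letters and was not tested as a site.

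Library depth ranged from 15658875 to 20055078 estimated counts. Levels are in CPM, counts scaled to library size with edgeR's TMM factors, and 3 counts, the limit that 0 counts allow, correspond to 0.138 to 0.213 CPM. Such limits and all counting intervals cover counting error only. The 6 markers of myotubes summed to 228 to 241 CPM in myoblasts, 20700 CPM in both myotube libraries and 6130 to 6230 CPM in reserve cells, so that the reserve cell libraries carried muscle transcripts too. The 6 markers of reserve or satellite cells summed to 483 to 498, 180 to 182 and 560 to 563 CPM in the same order. Notch3 was the largest of them in myoblasts and reserve cells, and Calcr was at 0 in all libraries. Spry1 of that list rose from 10.4 and 11.0 CPM in myoblasts to 96.6 and 94.9 CPM in myotubes. In reserve cells its mean was 84.5 CPM, the largest rise of the list over myoblasts. Between the means of myoblasts and reserve cells, Notch3 went from 320 to 344 CPM and Cd34 from 32.1 to 49.3 CPM. Myf5 went from 56.9 down to 20.7 CPM and Pax7 from 70.6 to 63.4 CPM. The higher sum in reserve cells thus does not stand for the list as a whole. The 6 markers of dividing cells summed to 1770 to 1790, 133 to 137 and 690 to 701 CPM in the same order of groups. Of the markers of adipocytes, Adipoq, Plin1, Cidec and Lep had no counts, of macrophages Ptprc and Adgre1, of endothelium Emcn, and of neural cells Rbfox3, Snap25 and Sox10. The summed CPM of these 4 lists was 8.14 to 45.6 for adipocytes (carried by Cebpa), 2.28 to 3.92 for macrophages, 0.646 to 2.06 for endothelium and 15.2 to 168 for neural cells (carried by Tubb3, which was higher in myoblasts). The part of muscle RNA in the reserve cell libraries and of cell division in any result below was not tested. In bulk RNA, fewer cells of a type and less RNA per cell cannot be told apart.

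Dlk1, Meg3 and Rian, neighbours in a single imprinted domain on chromosome 12, were silent or nearly so in all 6 libraries. Dlk1 encodes a membrane protein related to Notch ligands that restrains differentiation of fat precursors, and it is expressed from the paternal copy. Meg3 and Rian are long noncoding RNAs from the maternal copy, and Rian hosts many small nucleolar RNAs. Dlk1 (ENSMUSG00000040856.17, 109452823 to 109463336 of mm10, plus strand) had 0 counts in every library over its 10 annotated transcripts. Meg3 (ENSMUSG00000021268.17, 109541001 to 109571726, plus strand) had 0 counts in every library over 11 transcripts. Rian (ENSMUSG00000097451.10, 109603940 to 109661716, plus strand) had 1 count in all, in reserve cell replicate 2 (0.0518 CPM), on 1 of its 20 transcripts. None of the 3 therefore stood above the limit of 0.213 CPM in a library, and differences between the groups were not detectable at this depth.

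A gene without counts was not rare, so these zeros say little about the domain by themselves. Of 21910 protein-coding genes, 28.6% had no count in any library, and of 5625 lincRNA genes 78.1%. The stretch around the 3 genes was nearly empty too. Between Begain and Ppp2r5c, over 1380 kb, lay 123 annotated genes, of which 92 are microRNA or small nucleolar RNA genes that a library of messenger RNA is not made to capture. Only 3 of the 123 had a count, namely Rian and the processed pseudogenes Gm3379 (158 counts over the 6 libraries) and Gm6988 (91 counts), whose reads can come from the parent gene elsewhere. Rtl1, a retrotransposon-derived gene, the noncoding RNA gene Mirg and Dio3, the deiodinase that inactivates thyroid hormone, had 0 counts in all libraries. No gene model that overlaps Dlk1, Meg3 or Rian had a count.

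Genes on both sides of the domain had counts in every library, though few for Begain. Yy1, a zinc finger factor 659.8 kb before Dlk1, stood at 97.5 to 102 CPM in the 6 libraries. Wars, the tryptophan tRNA ligase gene, stood at 55.6 to 71.6 CPM. Nearer to Dlk1, Wdr25 was at 4.98 to 9.19 CPM and Begain at 0.231 to 0.698 CPM, 385 kb before it. On the far side, 166 kb past Dio3, Ppp2r5c, a subunit of protein phosphatase 2A, stood at 102 to 134 CPM. Begain, with 5 to 13 counts per library, stood close to the limit that 0 counts allow.

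**Figure D1:**
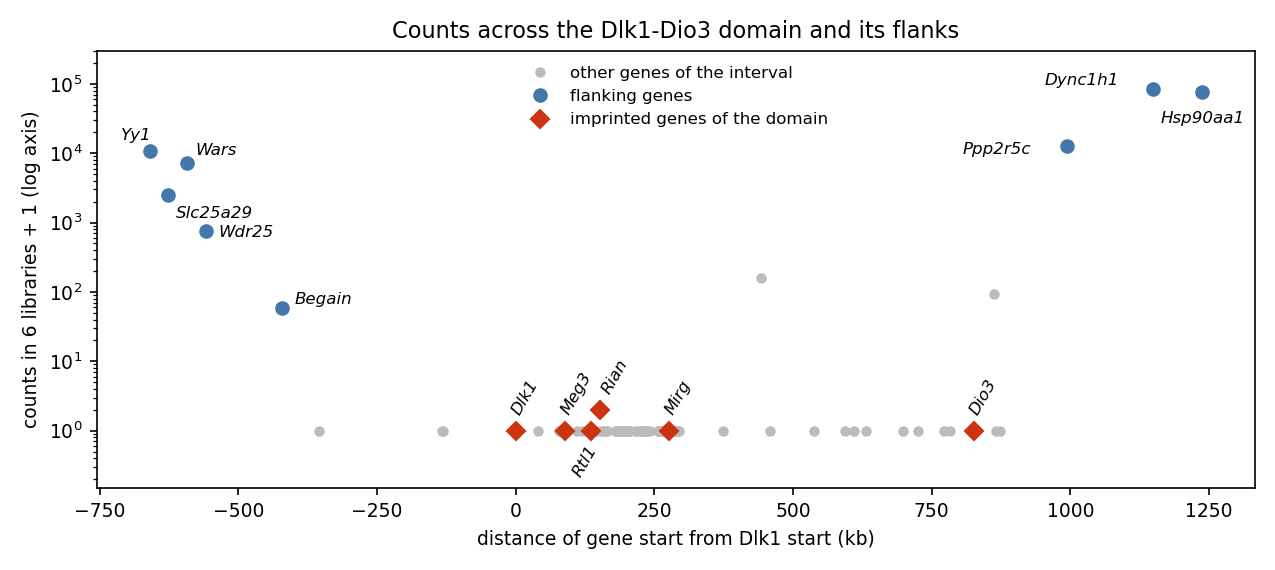
Summed counts of the 6 libraries plus 1 (log axis) against the distance of each gene start from the start of Dlk1 in kb, 1 point per annotated gene. Red diamonds are imprinted genes of the domain, of which only Rian has a count, blue points are flanking genes, up to 83026 counts for Dync1h1, and grey points are the other genes of the interval, where the points off the baseline are the pseudogenes Gm3379 and Gm6988.

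Across the 10 genes, myotubes differed from myoblasts in 5 and reserve cells from myoblasts in 4, and myotubes from reserve cells in 4. Between myotubes and myoblasts 65.5% of all 15467 genes tested were called by edgeR's quasi-likelihood test at an adjusted p under 0.05 (Benjamini-Hochberg), 32.7% higher and 32.9% lower, and of the 6 tested members Zdbf2 was higher and Peg3, Mest, Ndn and Peg10 were lower. Between reserve cells and myoblasts 47.1% of genes were called, 24.7% higher and 22.4% lower, and Mest and Zdbf2 were higher and Peg3 and Peg10 lower. Between myotubes and reserve cells 56.5% were called, 27.6% higher and 28.9% lower, and Peg3 was higher in myotubes and Mest, Ndn and Peg10 lower. Read against those background shares, the counts of 5, 4 and 4 out of 6 show nothing particular to these genes. The median log2 fold change of the 6 tested members was −1.33, 0.01 and −1.34 in the 3 comparisons, beside medians of 0.00, 0.01 and −0.01 over all genes tested. The CPM of the groups did not overlap for 6 of the 6 tested members between myotubes and myoblasts, beside 82.9% of all genes tested, for 4 between reserve cells and myoblasts, beside 74.8%, and for 5 between myotubes and reserve cells, beside 78.3%, which is ordinary in these libraries. Among the called genes, Zdbf2 entered the test only through the Day 7 libraries, where it was high, and is given as a description. The order of the 3 groups differed between Peg3, Mest and Peg10.

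**Figure D2:**
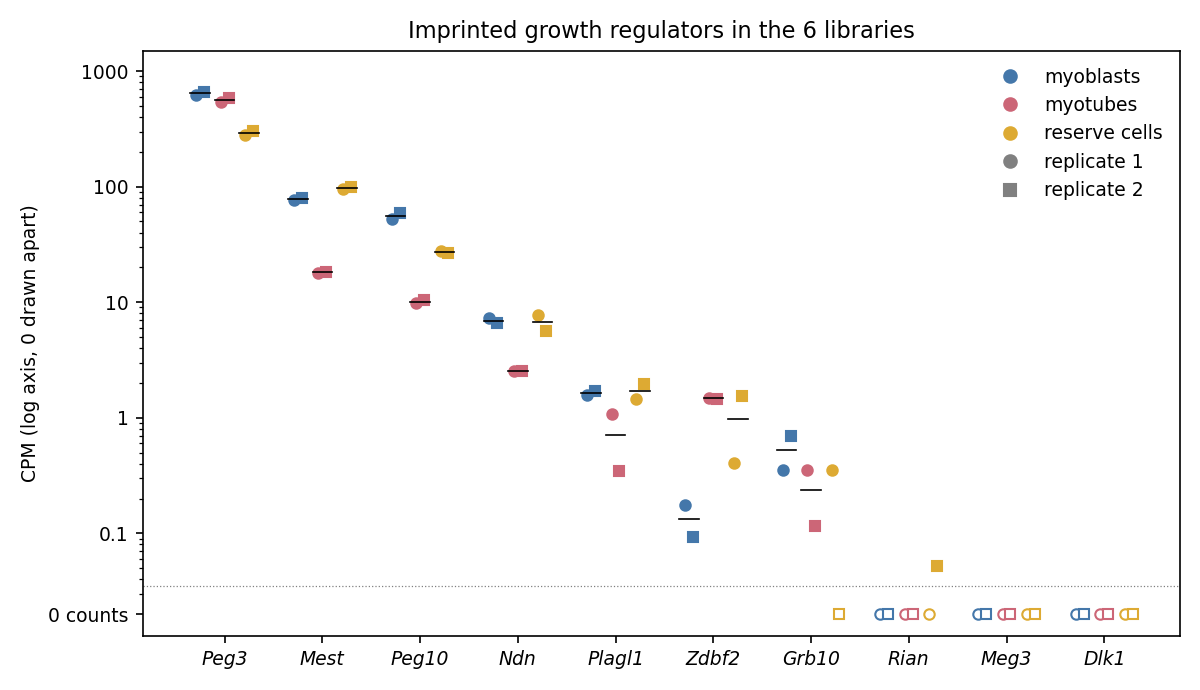
CPM of the 10 genes in each of the 6 libraries (log axis, with libraries at 0 counts drawn as open symbols at the bottom), circles for replicate 1, squares for replicate 2 and a bar at the group mean where both libraries have counts. Peg3 is lowest in reserve cells, Mest and Ndn are lowest in myotubes, Peg10 falls from myoblasts over reserve cells to myotubes, and Dlk1 and Meg3 lie at 0.

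Peg3, a paternally expressed gene for a large zinc finger protein that takes part in TNF signalling and p53-linked cell death and marks muscle stem cells, had the highest CPM of the members in each group and was lowest in reserve cells. Peg3 (ENSMUSG00000002265.16, chromosome 7, 6703892 to 6730431, minus strand) stood at 625 and 656 CPM in myoblasts, 536 and 587 CPM in myotubes and 278 and 306 CPM in reserve cells. The 3 groups did not overlap, and both reserve cell libraries lay far below the other 4. Reserve cells were 2.19-fold below myoblasts, a log2 fold change of −1.13 (SE 0.0583, 95% interval −1.26 to −1.0, adjusted p = 2.3e-08 from edgeR). Myotubes were 1.92-fold above reserve cells, a log2 fold change of 0.94 (edgeR adjusted p = 7.9e-08, SE 0.0582). The step from myoblasts to myotubes was small, −0.19 (SE 0.0575, 95% interval −0.32 to −0.06, adjusted p = 0.0126 from edgeR).

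That small step depended on the libraries and on the scaling. In edgeR it no longer passed without myoblast replicate 2 (−0.16, adjusted p = 0.0899) or without myotube replicate 1 (−0.13, adjusted p = 0.0926), and with library totals in place of TMM factors it was −0.47, where the median of all genes moved to −0.27. Most Peg3 counts, 94.0%, fell on the transcript Peg3-201, and Peg3-203, with a premature stop, had 345 counts in myotube replicate 1 and none in the other libraries.

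Neighbours of Peg3 were lower in reserve cells as well. Zim1, a zinc finger gene 7.44 kb from Peg3 on the same strand and expressed from the maternal copy, stood at 85.5 and 88.3 CPM in myoblasts, 78.4 and 82.1 CPM in myotubes and 37.6 and 34.7 CPM in reserve cells. Its log2 fold change was −1.26 in reserve cells over myoblasts (edgeR adjusted p = 2.5e-08, SE 0.0799), 1.15 in myotubes over reserve cells (SE 0.0801, adjusted p = 4.7e-08) and −0.12 in myotubes over myoblasts (adjusted p = 0.21). Zim1 was thus lowest in reserve cells, as Peg3 was, and its step between myoblasts and myotubes did not pass. The 2 genes are known as expressed from opposite parental copies, which was not measured in these cells. Usp29, a ubiquitin protease gene that starts 146 bases from Peg3 on the other strand, stood at 7.41 and 9.27, 2.77 and 4.19, and 2.77 and 2.18 CPM in the same order of groups. It was lower in myotubes (−1.25, SE 0.305, adjusted p = 0.00265 from edgeR) and in reserve cells (−1.75, SE 0.31, adjusted p = 0.00041), and its Day 7 groups were 0.50 apart (adjusted p = 0.203). Zim3 had 10 counts or fewer in each library and Zfp264 none. Whether reads were counted by strand is not given in the sources used here.

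Mest, a paternally expressed gene for an enzyme-like protein of the endoplasmic reticulum with a hydrolase fold, was lowest in myotubes and slightly higher in reserve cells than in myoblasts. Mest (ENSMUSG00000051855.15, chromosome 6, 30723547 to 30748465, plus strand) stood at 76.4 and 79.3 CPM in myoblasts, 17.9 and 18.2 CPM in myotubes and 95.2 and 100 CPM in reserve cells. The groups did not overlap, and the myotube libraries lay far below the other 4. Myotubes were 4.31-fold below myoblasts, a log2 fold change of −2.11 (SE 0.083, 95% interval −2.29 to −1.93, adjusted p = 6.7e-11 from edgeR), and 5.41-fold below reserve cells (−2.44, SE 0.0833, adjusted p = 4.3e-11). Reserve cells were 1.26-fold above myoblasts (0.33, SE 0.0755, 95% interval 0.16 to 0.49, adjusted p = 0.00284 from edgeR).

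The transcripts behind these values began at 1 place. Mest-211 and Mest-202, which start 3 bases apart just after the Mest sequence shown above, held 99.4% of the 7418 Mest counts, and the 5 transcripts that start over 1000 bases upstream held 3. Copg2, a coat protein gene on the other strand that overlaps Mest by 912 bases, stood at 102 and 109 CPM in myoblasts, 73.2 and 78.8 CPM in myotubes and 116 and 108 CPM in reserve cells, with a log2 fold change of −0.47 in myotubes over myoblasts (edgeR adjusted p = 8.2e-05, SE 0.0742) and of 0.08 in reserve cells (adjusted p = 0.379). Without strand, reads in the shared bases cannot be told apart, and Copg2 was the only overlapping gene model of any member with a count. Klf14, further along the cluster, had none.

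Peg10 and Ndn were lowest in myotubes too. Peg10, a paternally expressed gene derived from a retrotransposon and needed in the placenta (ENSMUSG00000092035.8, chromosome 6, 4747306 to 4760517, plus strand), stood at 53.0 and 59.4 CPM in myoblasts, 9.88 and 10.4 CPM in myotubes and 27.6 and 26.8 CPM in reserve cells. The groups did not overlap, with reserve cells between the others. Myotubes were 5.54-fold below myoblasts, a log2 fold change of −2.47 (SE 0.111, 95% interval −2.71 to −2.23, adjusted p = 2.6e-10 from edgeR), and reserve cells were 2.07-fold below them (−1.05, SE 0.1, adjusted p = 1.6e-06). Myotubes were 2.68-fold below reserve cells (−1.42, SE 0.111, adjusted p = 1.5e-07 from edgeR). The 3 transcripts of Peg10 are nearly identical, and the estimated share of Peg10-203 went from 46.9% to 8.11% between the replicates of reserve cells, so only the sum over the gene is compared.

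Sgce, the gene of epsilon-sarcoglycan in the dystrophin complex, starts 98 bases from Peg10 on the other strand and is paternally expressed as well. It stood at 28.3 and 28.7 CPM in myoblasts, 5.90 and 6.51 CPM in myotubes and 31.1 and 28.6 CPM in reserve cells. In myotubes over myoblasts its log2 fold change was −2.20 (edgeR adjusted p = 9.4e-09, SE 0.139), beside −2.47 for Peg10. In reserve cells over myoblasts it was 0.07 (SE 0.124, adjusted p = 0.705), beside −1.05 for Peg10, and the difference between the genes was not tested. Further genes of that cluster moved in other directions. Pon3, a paraoxonase gene, fell in myotubes by 1.29 on the log2 scale (adjusted p = 8.8e-05 from edgeR), while the paraoxonase gene Pon2 rose by 1.14 (adjusted p = 6.8e-07) and Casd1, a sialic acid acetyltransferase gene, by 0.78 (adjusted p = 0.0001). Ppp1r9a, a neurabin gene with only 2 to 33 counts per library, was higher in myotubes than in reserve cells (adjusted p = 0.00078 from edgeR). Its reserve cell libraries held 2 counts each. Ppp1r9a entered the test through the other groups, so this call is given as a description. Tfpi2 had no counts, and Asb4 had 5 counts in myotube replicate 2, 2 in reserve cell replicate 2 and none elsewhere.

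Ndn encodes necdin, a protein of the MAGE family that binds E2F1 and p53 and slows the cell cycle, and it is expressed from the paternal copy. Ndn (ENSMUSG00000033585.5, chromosome 7, 62346569 to 62350262, plus strand) stood at 7.23 and 6.55 CPM in myoblasts, 2.56 CPM in both myotube libraries and 7.82 and 5.59 CPM in reserve cells. The myotube libraries lay below the others, and the reserve cell libraries lay on both sides of the myoblasts. Myotubes were 2.69-fold below myoblasts, a log2 fold change of −1.43 (SE 0.28, 95% interval −2.03 to −0.82, adjusted p = 0.00052 from edgeR), and 2.62-fold below reserve cells (−1.39, SE 0.279, adjusted p = 0.00084). Between reserve cells and myoblasts the value was −0.04 (edgeR adjusted p = 0.923, SE 0.261), with a 95% interval of −0.60 to 0.53.

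Genes around Ndn differed among themselves. Peg12, 112 kb away, stood at 4.84 and 3.97 CPM in myoblasts and 1.51 and 1.45 CPM in reserve cells, with 2 counts and 0 counts in the myotube libraries, and it passed the test in all 3 comparisons (adjusted p = 7.8e-06, 0.016 and 0.00028 from edgeR). No fold is given against so few counts. Peg12 entered the test through the other groups, so its 2 calls against myotubes are given as a description. Snrpn, which encodes a splicing protein and is paternally expressed, went the other way, from 8.58 and 8.48 CPM in myoblasts to 29.0 and 27.3 CPM in myotubes (1.72, SE 0.172, adjusted p = 1.0e-06 from edgeR), and was at 11.6 and 8.5 CPM in reserve cells (0.24, adjusted p = 0.293). Ube3a, a ubiquitin ligase gene imprinted in neurons, was 0.76 higher in myotubes on the log2 scale (adjusted p = 7.4e-07 from edgeR) and 0.52 higher in reserve cells (adjusted p = 5.1e-05). Mkrn3 had 5 to 27 counts per library and did not pass, Magel2 had none, and Snurf had 5 counts in myoblast replicate 1 alone.

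**Figure D3:**
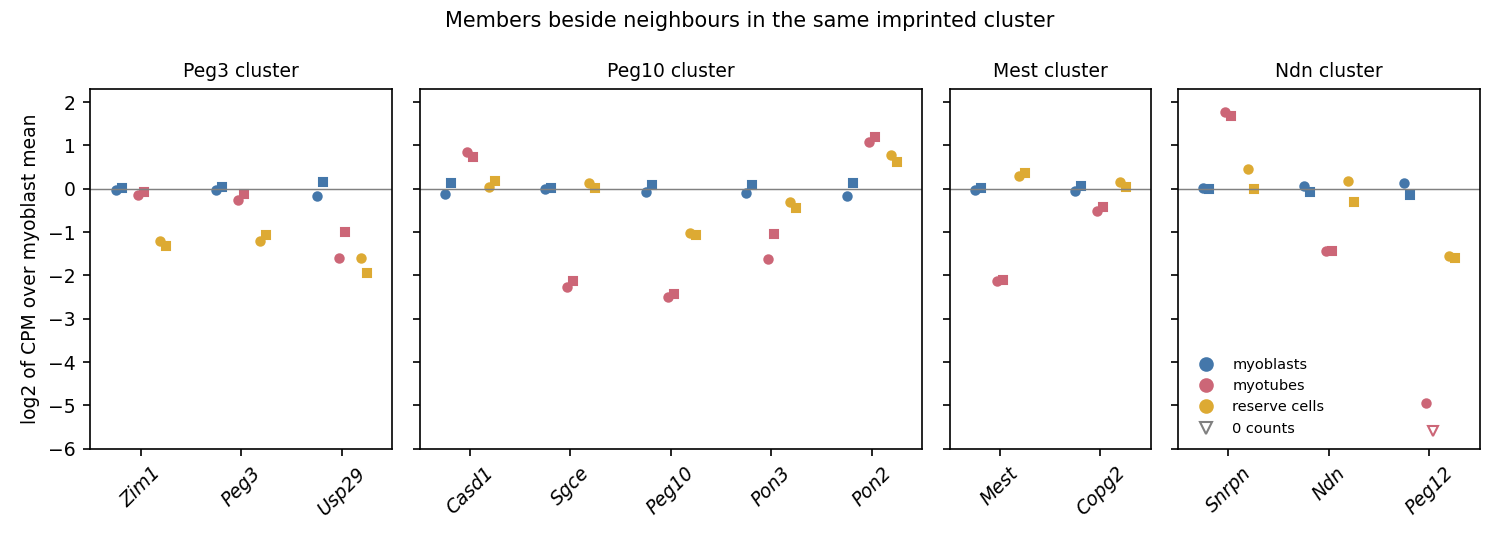
CPM of Peg3, Peg10, Mest and Ndn and of neighbours in their clusters, as log2 of each library over the mean of the myoblast libraries, circles for replicate 1 and squares for replicate 2. Zim1 lies near Peg3 in all groups, Sgce lies near Peg10 in myotubes but not in reserve cells, and Snrpn rises where Ndn and Peg12 fall, with Peg12 at 0 counts in myotube replicate 2 (open triangle).

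Plagl1, Zdbf2 and Grb10 were near the lower limit of what these libraries resolve. Plagl1, a paternally expressed zinc finger transcription factor gene that can halt the cell cycle (ENSMUSG00000019817.18, chromosome 10, 13060504 to 13131694, plus strand), had 27 and 37 counts in myoblasts, 15 and 6 in myotubes and 29 and 38 in reserve cells, or 1.58 and 1.71, 1.07 and 0.349, and 1.46 and 1.97 CPM. Both myotube libraries lay below the other 4. The log2 fold change in myotubes was −1.24 over myoblasts (SE 0.592, 95% interval −2.52 to 0.05, adjusted p = 0.0837 from edgeR) and −1.30 over reserve cells (SE 0.591, 95% interval −2.58 to −0.02, adjusted p = 0.079), neither past the threshold, and 0.06 in reserve cells over myoblasts (SE 0.543, adjusted p = 0.939). Without myotube replicate 1, Plagl1 passed as lower in myotubes than in myoblasts (−2.22, adjusted p = 0.0151 from edgeR) and than in reserve cells (−2.28, adjusted p = 0.016). Without myotube replicate 2 the values were smaller, −0.63 (adjusted p = 0.386 from edgeR) and −0.69 (adjusted p = 0.364). With library totals it passed in both (−1.51, adjusted p = 0.0388, and −1.5, adjusted p = 0.0458 from edgeR). Of its counts, 96.7% were on Plagl1-202.

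Zdbf2, a paternally expressed gene for a zinc finger protein that promotes postnatal growth through the hypothalamus, had few counts, most of them at Day 7. Zdbf2 (ENSMUSG00000027520.15, chromosome 1, 63273265 to 63314576, plus strand) had 3 and 2 counts in myoblasts, 21 and 25 in myotubes and 8 and 30 in reserve cells, or 0.175 and 0.0922, 1.49 and 1.45, and 0.403 and 1.55 CPM. The myoblast libraries lay below the other 4, and the reserve cell libraries were far apart. It entered the test through the Day 7 libraries alone, with counts in myoblasts at or below the limit of 3, so that a gene let in this way had to differ, and its folds are loosely bounded and support nothing further. The log2 fold change was 3.43 in myotubes over myoblasts (SE 0.872, 95% interval 1.54 to 5.32, adjusted p = 0.00351 from edgeR) and 2.84 in reserve cells over myoblasts (SE 0.879, 95% interval 0.94 to 4.75, adjusted p = 0.0171). The Day 7 groups were 0.59 apart (SE 0.697, 95% interval −0.92 to 2.10, adjusted p = 0.499 from edgeR). The call in reserve cells ended without myoblast replicate 1 (3.31, adjusted p = 0.0556), myoblast replicate 2 (2.43, adjusted p = 0.124) or reserve cell replicate 2 (1.58, adjusted p = 0.289). All counts were on Zdbf2-202, Gpr1 in the same cluster had none, and Adam23 did not pass in any comparison.

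Grb10 encodes an adaptor that binds the insulin and IGF-1 receptors and restrains their signal, and outside the brain it is mainly expressed from the maternal copy. Grb10 (ENSMUSG00000020176.17, chromosome 11, 11930508 to 12038683, minus strand) had 6 and 15 counts in myoblasts, 5 and 2 in myotubes and 7 and 0 in reserve cells, or 0.350 and 0.692, 0.356 and 0.116, and 0.353 and 0 CPM. The groups overlapped, and Grb10 did not pass the filter on low counts. All 35 counts were on Grb10-201. Its neighbour Cobl, an actin-nucleating gene 198 kb away, was at 25.1 and 23.1 CPM in myoblasts, 159 and 167 CPM in myotubes and 64.5 and 69.1 CPM in reserve cells, with a log2 fold change of 2.76 in myotubes over myoblasts (edgeR adjusted p = 4.1e-12, SE 0.0827). Ddc, the decarboxylase gene 32.4 kb away, was at 1.24 to 3.27 CPM and did not pass.

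**Figure D4:**
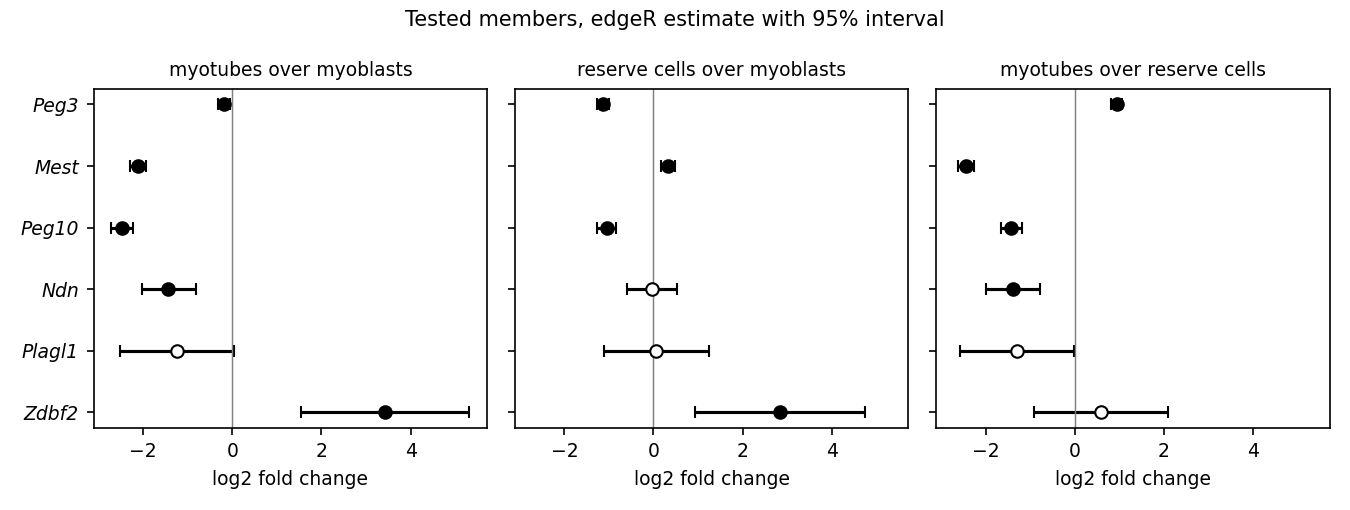
Log2 fold change of the 6 tested members with its 95% interval from edgeR in the 3 comparisons, filled where the adjusted p is under 0.05 and open where it is not. Mest, Peg10 and Ndn lie below 0 in myotubes against either other group, Peg3 lies furthest from 0 where reserve cells are compared, and the intervals of Zdbf2 and Plagl1 are the widest.

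Compared per length, in TPM (without TMM factors), Peg3 led in myoblasts with 189 ± 6.49 TPM (SD, n = 2 libraries, as for the values that follow), ahead of Mest with 76.2 ± 2.73 and Peg10 with 21 ± 1.72 TPM. In myotubes Peg3 stood at 130 ± 3.19 TPM, Mest at 13.5 ± 0.34 TPM and Peg10 at 2.83 ± 0.123 TPM. In reserve cells the means of Mest, 94.5 ± 4.61 TPM, and Peg3, 86.4 ± 7.66 TPM, were close, and Peg10 stood at 9.96 ± 0.134 TPM. Both genes come from the same libraries, and the order of Mest and Peg3 was not tested. The gap between the means of Peg3 and Mest was thus wide in myotubes and small in reserve cells. Ndn came next in all 3 groups, at 4.61 ± 0.316, 1.28 ± 0.00963 and 4.40 ± 0.982 TPM, and Plagl1 after it, at 0.851 ± 0.158, 0.249 ± 0.177 and 1.05 ± 0.313 TPM. Zdbf2 and Grb10 stayed at or below 0.255 TPM on average, and in myotubes Plagl1 and Zdbf2 (0.216 ± 0.0024 TPM) did not differ beyond their spread.

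Some abundant genes had nearly the same profile over the 6 libraries, ranked by Euclidean distance between log2 CPM centred on each gene's mean, among 9384 genes with a mean of at least 10 CPM. Nearest to Peg3 were Sema3c, a semaphorin gene (distance 0.158), and Nptx1, a pentraxin gene (0.162). Nearest to Mest were Dnm3os, a host transcript of microRNAs (0.158), and Elovl6, a fatty acid elongase gene (0.16). Nearest to Peg10 were Tmpo, a lamina-associated protein gene (0.152), and Cavin3 (0.156), and nearest to Ndn were Nfya (0.199) and Cbr2 (0.268). Among so many genes and only 3 groups, close matches had to turn up, and shared regulation was not tested.

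Most genes that keep imprints through cell division were lower at Day 7. Of 10 genes of imprint maintenance 8 were tested, and 7 were lower and none higher in myotubes than in myoblasts, beside 32.9% of all genes lower, with a median log2 fold change of −1.31. Uhrf1, which guides DNMT1 to replicated DNA, was at 171 and 169 CPM in myoblasts, 11.2 and 12.2 CPM in myotubes and 58.6 and 63.1 CPM in reserve cells, with a log2 fold change of −3.86 in myotubes (edgeR adjusted p = 2.7e-13, SE 0.0877). Dnmt1, the maintenance methyltransferase, was at −1.88 (edgeR adjusted p = 1.7e-11, SE 0.065), the chromatin remodeller gene Hells at −3.13 and Trim28 at −1.16. In reserve cells 7 of the 8 were lower than in myoblasts (median −0.52), beside 22.4% of all genes, and Zfp445, a zinc finger gene that acts beside Zfp57, was higher (0.33, adjusted p = 0.00615 from edgeR). All 8 were lower in myotubes than in reserve cells (median −0.75), beside 28.9% of all genes. Zfp57 itself was at 20.4 and 20 CPM in myoblasts, 11.5 and 11.2 CPM in myotubes and 14.8 and 16.4 CPM in reserve cells, and Ctcfl and Dppa3 had no counts. Markers of dividing cells followed the same order of groups, as given above.

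Partners of these proteins were present in all groups. Of 15 genes, namely Notch receptors, targets and the protease gene Adam17 for Dlk1, insulin and IGF signalling genes and the ubiquitin ligase gene Nedd4 for Grb10, E2f1 and Trp53 for Ndn and Siah1a and Tnfrsf1b for Peg3, 12 were lower and none higher in myotubes than in myoblasts (median −0.86), and 13 were lower than in reserve cells (median −1.08), beside 32.9% and 28.9% of all genes. Between reserve cells and myoblasts 5 were higher and 5 lower (median −0.04), beside 24.7% and 22.4%. The insulin receptor substrate gene Irs1 was at −1.63 in myotubes over myoblasts (adjusted p = 8.5e-10 from edgeR), and Irs2 was 1.66 higher in reserve cells (adjusted p = 2.4e-08). Tnfrsf1b, a TNF receptor gene, was at −2.36 in myotubes (adjusted p = 1.1e-09 from edgeR), and Siah1a, a ubiquitin ligase gene, was 0.70 higher in reserve cells (adjusted p = 0.00011). Trp53, the p53 gene, was at −1.49 in myotubes (adjusted p = 1.1e-09 from edgeR).

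Genes known to be coexpressed with these imprinted genes in mouse tissues showed no common direction. Of 11 genes of this network 10 were tested, and 4 were higher and 2 lower in myotubes than in myoblasts (median −0.13), 5 and 2 in reserve cells (median 0.21), and 3 and 2 in myotubes over reserve cells (median 0.03). Of all genes, 32.7% were higher and 32.9% lower in the first of these comparisons, 24.7% and 22.4% in the next and 27.6% and 28.9% in the last. H19, a maternally expressed noncoding RNA, rose to 15500 and 14800 CPM in myotubes from 2450 and 2350 CPM in myoblasts (2.66, SE 0.0452, adjusted p = 2.1e-12 from edgeR), and Igf2, its paternally expressed neighbour, rose by 3.44 on the log2 scale (adjusted p = 3.9e-13). Dcn, the decorin gene, was at 97.2 and 98.6 CPM in reserve cells and 17.2 CPM or less in the other libraries, 2.86 above myoblasts (edgeR adjusted p = 3.1e-10, SE 0.116), and Gatm was lower than in myoblasts in both Day 7 groups (−0.66 and −1.0). Of the 27 neighbours in the members' own clusters 16 were tested, and 5 were higher and 5 lower in myotubes than in myoblasts (median 0.53), 3 and 4 in reserve cells (median 0.07), and 7 and 4 in myotubes over reserve cells (median 0.59), beside the same shares of all genes.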

How the data were processed

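Messenger RNA of 6 C2C12 libraries was analysed, 2 per group. The authors aligned paired-end fragments to mm10 with HISAT2, filtered them with SAMtools and ran StringTie, and the whole-number estimated counts deposited are per transcript. A series table, also deposited by the authors, holds a score that is not scaled for depth, and it was used only in 1 alternative. The sources used here do not give versions, annotation release, strand or multimapping settings, and no column of the files was left out.

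Transcripts were summed to genes with GENCODE M21 (GRCm38, the assembly of mm10). A gene was found for 141374 of 142604 transcripts. The 1230 without one held 0.375% to 0.872% of the counts and kept their own identifiers, so a gene can be counted in part. The filter of edgeR 4.0.16 (R 4.3.3, filterByExpr, minimum count 10) left 15467 genes, which were fitted together over the 6 libraries (TMM, robust glmQLFit, glmQLFTest), with Benjamini-Hochberg adjustment over all of them. Replicates differed by more than sampling noise (chi-square per degree of freedom 6.37 to 8.27), and the biological coefficient of variation was 12.9%. If the 2 libraries of a group are not separate cultures, p-values measure technical spread only. The procedure was tested on simulated data. TPM used annotated transcript lengths.

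The genes, lists and rules were chosen with earlier results of these data known. Named are the 10 members, neighbours in their clusters, from each list up to 4 genes with the smallest adjusted p in a comparison, and the 2 genes nearest in profile, which for Plagl1 and Zdbf2 are not reported here. Zfp57, Zfp445, Ctcfl, Dppa3, Kcnk9, Ascl2, the markers and the genes flanking the domain of Dlk1 were named after their values were seen. Sequences are from RefSeq on GRCm38.p6. Alternatives were DESeq2 1.42.0, RLE factors, library totals, no filter, 10 CPM in 2 libraries, only the 4 libraries compared and a replicate block. Further ones were limma-trend (limma 3.58.1) on the series table, each of the 6 libraries left out and, added after seeing the data, no robust estimation. For limma-trend the series table was scaled to its column totals before log2 of the values plus 1.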

Additional observations from a re-analysis of the deposited data

How the results depend on the processing

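The number of members called was recomputed under 15 alternatives in each comparison and moved by over 1.5 times in 1 of them. With a filter at 10 CPM in 2 libraries, 3 of the members were called between myotubes and myoblasts in place of 5, because Ndn and Zdbf2 were no longer tested. Plagl1, not called in the main fit, was not tested either. Leaving out 1 library at a time gave 4 to 5 members called between myotubes and myoblasts, 3 to 4 between reserve cells and myoblasts and 4 to 5 between myotubes and reserve cells. Libraries of the same replicate number shared little deviation across genes (correlations of deviations 0.002, 0.04 and −0.032). For 2 libraries per group this cannot tell which Day 7 libraries came from the same dishes. The replicate block gave 5, 4 and 4 members called, as without it. With library totals 6, 4 and 5 were called, and the median of all genes moved to −0.27, −0.06 and −0.21.

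Values that changed sign were not past the threshold, and the cause was not tested. Plagl1 in reserve cells over myoblasts went to −0.0096 with library totals, −0.044 in limma-trend and from −0.17 to 0.26 when a library was left out. Ndn in the same comparison ranged from −0.30 to 0.18, above 0 without myoblast replicate 1 (0.029) or reserve_cell replicate 2, and Zdbf2 in myotubes over reserve cells from −0.083 (without reserve_cell replicate 1) to 1.84. Plagl1 also passed as lower in myotubes than in myoblasts in limma-trend (−1.69, adjusted p = 0.0459), which was scaled to totals too. Without myotube replicate 2, Plagl1 was at −0.63 in edgeR. Mest, Peg10 and Ndn kept the direction and the call of each lower value in myotubes under the alternatives that tested them. With 2 libraries per group and under 40 counts per library, Plagl1 and Zdbf2 have wide intervals, and Grb10 was not tested.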

Other observations

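Imprinted genes outside the lists described above also moved in both directions. Of 18 such genes 13 were tested, and 4 were higher and 3 lower in myotubes than in myoblasts (median log2 fold change 0.14), 2 and 2 in reserve cells (median 0.15), and 3 and 1 in myotubes over reserve cells (median −0.13), beside 32.7% and 32.9%, 24.7% and 22.4%, and 27.6% and 28.9% of all genes. Herc3, a ubiquitin ligase gene, was at 14.4 and 14.6 CPM in myoblasts, 55.7 and 58.5 CPM in myotubes and 29.3 and 28.1 CPM in reserve cells, with a log2 fold change of 1.98 in myotubes over myoblasts (edgeR adjusted p = 5.9e-10, SE 0.0959). The phosphatase gene Inpp5f fell by 1.24 on the log2 scale in myotubes (adjusted p = 2.1e-06 from edgeR) and by 0.96 in reserve cells (adjusted p = 4.0e-05). At a single locus on chromosome 15, Trappc9 was 0.75 higher in myotubes than in myoblasts (adjusted p = 3.0e-06 from edgeR). The noncoding RNA Peg13, annotated as intronic within it on the same strand, was at −0.97 (adjusted p = 6.5e-05 from edgeR). Reads of Peg13 cannot be told apart from those of unspliced Trappc9 RNA over the same bases. Kcnk9 and Ascl2 had no counts in any library.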
